A study of Mus musculus with 6 samples.

Results

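Of the 20 genes of the SOX family listed in the all-gene table, 10 were examined in dermal fibroblasts with and without stabilized β-catenin. They are Sox2 of the SoxB subgroup, Sox4, Sox11 and Sox12 of SoxC, Sox5, Sox6 and Sox13 of SoxD, Sox8 and Sox9 of SoxE, and Sox18 of SoxF, chosen by name from the 41126 genes of the table. The other 10 Sox genes are given where they touch these results. Expression was measured by RNA-seq, which counts the sequenced cDNA fragments of each gene, in 6 libraries, 3 of each group. All were ventral dermal fibroblasts in culture, labelled postnatal day 4 and taken from mice of mixed CD1 and C57Bl6 strain. In the paper's methods, that is the youngest age given for the ventral skin of these cultures. The Control cultures were infected with AdGFP, an adenovirus that expresses green fluorescent protein, and their genotype is labelled +/+. The GOF (gain of function) cultures were infected with AdCre, an adenovirus that expresses the Cre recombinase, and their genotype is labelled Ctnnb1{delta}ex3/+. Cre removes exon 3 of Ctnnb1, which encodes the residues that mark β-catenin for destruction, so that the protein is stabilized from 1 of the 2 alleles.

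The virus differs along with β-catenin between the groups, and the effects of these cannot be told apart. The paper describes the same floxed allele in the control cultures, whereas the labels call them wild type, and the treatment text of the labels gives AdCre for every culture. The share of cells in which Cre acted is not given by a gene-level table. The labels name 4 animals. Control replicate 0 and GOF replicate 2 came from animal 9852, Control replicate 2 and GOF replicate 0 from animal 9845, Control replicate 1 from animal 9844 and GOF replicate 1 from animal 9843. Cultures of 1 animal share its inherited genotype. The +/+ label can therefore not hold for Control replicates 0 and 2 if GOF replicates 2 and 0 carried the floxed allele. Library totals ranged from 35980831 to 42834467 fragments. Axin2, a direct target of β-catenin, was read at 0.136 to 0.177 FPKM in the Control libraries and at 14.4 to 19.2 FPKM in the GOF libraries (log2 fold change 6.98, adjusted p = 4.95e-05, edgeR). FPKM is the number of fragments scaled to transcript length and to the library's total, and it is the only scale on which levels of different genes are compared here. Ctnnb1 itself was at 254.0 to 285.2 FPKM in Control and 245.9 to 296.5 FPKM in GOF. Of 10 markers of dermal fibroblasts 9 were tested, 2 fell (Col1a2 and Dcn) and none rose, with a summed level of 3084.6 to 3927.1 FPKM in Control and 2567.4 to 3216.9 FPKM in GOF. The call of Col1a2 was lost without Control replicate 1 or 2 or GOF replicate 1 or 2 (adjusted p from 0.0937 to 0.118), and with the animal as a block its difference was under 2-fold (-0.88).

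SOX proteins are transcription factors that bind the minor groove of DNA through a high mobility group box related to that of SRY, and they bend the DNA where they bind. The TCF/LEF factors, which carry β-catenin to its target genes, use a related box, and several SOX proteins bind β-catenin or TCF factors and either reduce or increase the transcription of Wnt targets. In skin, Sox9 is known from the stem cells of the hair follicle, Sox2 from the dermal papilla of certain hair types and from Merkel cells, Sox18 from vessels and from the developing dermal papilla, and Sox10 from Schwann cells and melanocytes.

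The promoters of Sox4 and Sox8, both called lower in GOF as described below, are shown because they differ in CCAAT boxes, a common promoter element, over the 250 bases before the start site. The sequences are those of RefSeq on GRCm38.p6, printed 5′ to 3′ on the strand of the gene. The Sox4 window is chr13:28953700-28953949 and the Sox8 window chr17:25570687-25570936, both on the minus strand. Capitals mark the CCAAT box, searched as CCAAT on both strands.
Sox4: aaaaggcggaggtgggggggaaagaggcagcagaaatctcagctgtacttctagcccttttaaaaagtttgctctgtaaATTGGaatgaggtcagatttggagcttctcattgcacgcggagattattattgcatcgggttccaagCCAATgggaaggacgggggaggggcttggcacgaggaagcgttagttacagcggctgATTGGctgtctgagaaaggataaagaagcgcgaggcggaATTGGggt
Sox8: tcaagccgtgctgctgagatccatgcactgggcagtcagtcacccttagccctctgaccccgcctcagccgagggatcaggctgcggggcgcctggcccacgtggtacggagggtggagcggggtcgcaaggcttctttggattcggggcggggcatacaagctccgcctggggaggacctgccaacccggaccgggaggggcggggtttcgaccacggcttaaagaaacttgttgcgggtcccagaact
The Sox4 window held 4 CCAAT matches, whose first printed bases are at positions -171, -104, -47 and -8, where -1 is the base before the start site of RefSeq. GENCODE starts Sox4 a few bases further upstream, so that the match at -8 lies within its exon. One match or more was found in 33.8% of the 32851 promoter windows of the same length in the mouse RefSeq table, and 4 or more in 0.84%. The Sox8 window held none. It lies within the body of 2810468N07Rik, a noncoding gene on the other strand. The TCF/LEF motif, searched as CTTTGAT and CTTTGAA on both strands, was in 7.48% of all windows and in neither of these. The SOX motif, searched as AACAAAG and AACAATG on both strands, was in 8.12% of all windows and also in neither. No match of one motif is also a match of another, although matches may share bases. Of the 10 genes, 8 had an entry, with 13 start sites in all, and Sox9 and Sox18 had none. Sox6, with 6 start sites, was the one gene of the 8 with a TCF/LEF match, which was found at 3 of them, at positions -64, -208 and -109. A match describes the letters of a window and does not show that a factor binds there.

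In the test across all genes, 3 of the 10 Sox genes fell in GOF, namely Sox4, Sox8 and Sox9. Sox8 passed the filter on low counts only through its Control libraries, where it was high. It therefore adds no support to this count or to that of separate ranges below. None was called higher by edgeR, nor by DESeq2 or limma as alternatives. A gene was called when it differed more than 2-fold with an adjusted p under 0.05 by edgeR's quasi-likelihood test. Of the 15462 genes tested, 6.69% were called higher and 5.64% lower, which makes 12.3% in either direction. Of the 10 Sox genes 9 passed the filter on low counts, and 6 of these 9 were not called. An adjusted p under 0.05 alone was reached by the same 3 genes, compared with 21.2% of all genes tested, and an unadjusted p under 0.05 by 4, the fourth being Sox13. Control and GOF libraries had separate ranges of FPKM for 4 of the 9, which are Sox4, Sox8, Sox9 and Sox13, and so did 39.5% of all genes tested. The median log2 fold change of the 9 was -0.58, and that of all genes tested was -0.016. In RNA from whole cultures, fewer cells of a type and less RNA per cell cannot be told apart.

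**Figure D1:**
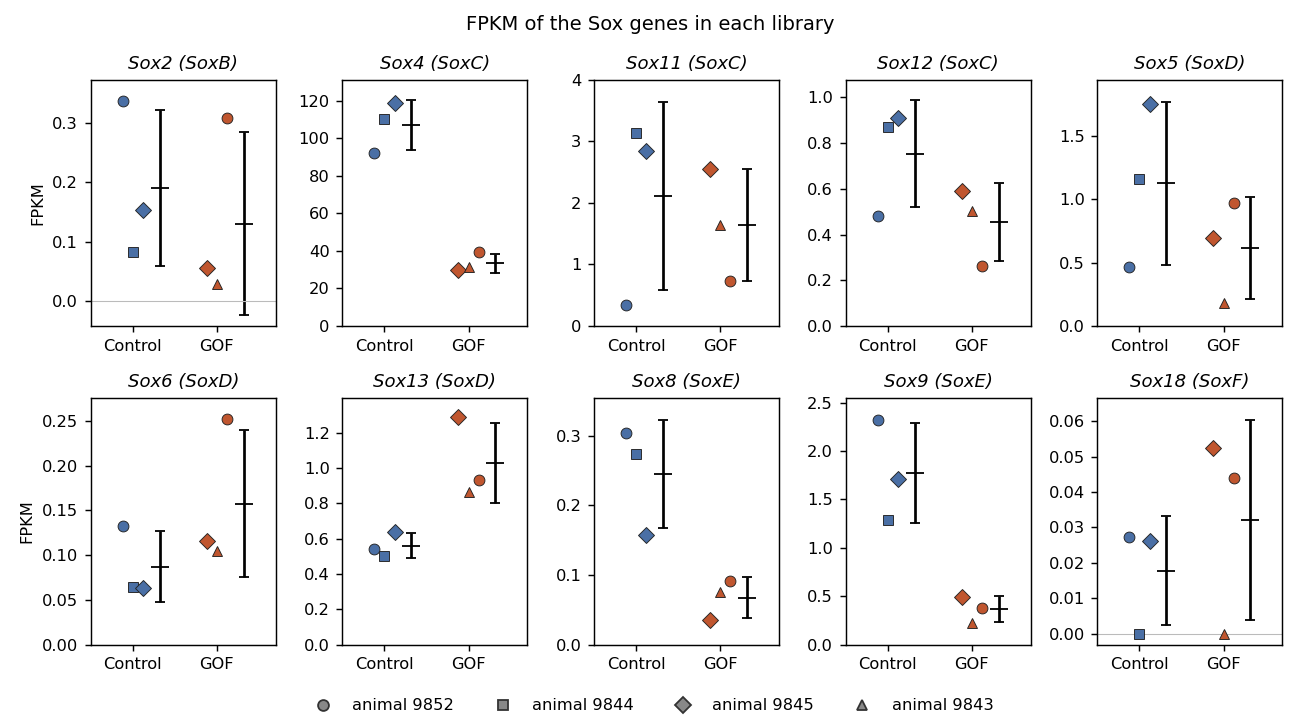
FPKM (vertical axis, linear, a scale for each gene) of the 10 Sox genes in each of the 3 Control (blue) and 3 GOF (orange) libraries, with the animal of origin as the symbol and the mean and SD (n = 3) as the bar beside the points. Sox4, Sox8 and Sox9 lie lower in every GOF library than in every Control library, Sox13 lies higher in every GOF library, and the groups overlap for the other 6 genes.

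Sox4 was by far the most abundant of the family. It encodes a SoxC activator of progenitor cells in many embryonic tissues and lies in a single exon at chr13:28948919-28953713 (mm10, minus strand). It was read at 92.3, 110.0 and 118.5 FPKM in Control replicates 0, 1 and 2 and at 30.0, 31.2 and 39.3 FPKM in GOF replicates 0, 1 and 2. All GOF libraries were far below all Control libraries, and none came near the lowest Control value. The fragments behind these values were 13672, 17899 and 19046 in Control and 4915, 4859 and 6534 in GOF, so that counting error is small beside the spread. Sox4 fell by 1.68 on the log2 scale (SE 0.15, 95% interval -2.02 to -1.33, adjusted p = 0.000547, edgeR), a 3.2-fold difference. Among the 15462 genes tested, its mean level moved from the percentile 95.4 in Control to 83.8 in GOF. Its fall ranged from -1.81 to -1.6 over the 13 other ways of processing and was called in all of them, with an adjusted p between 1.53e-21 and 0.00565. Gm26735, an annotated noncoding gene on the opposite strand that shares 2616 exon bases with Sox4, was listed at 0 fragments in every library.

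Because Sox4 supplied most of the family's RNA per length, the sum over the family followed it. The summed level of all 20 Sox genes was 97.8, 118 and 126.9 FPKM in the Control libraries and 36.5, 35.4 and 44 FPKM in the GOF libraries. Sox4 made up 93.5% to 94.9% of the sum over the 10 genes in Control and 83.6% to 90.8% in GOF. Its share was thus lower in each GOF library than in each Control library. Without Sox4, the other 9 genes summed to 4.96, 7.38 and 8.26 FPKM in Control and to 5.87, 3.62 and 3.97 FPKM in GOF, and these ranges overlap.

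Sox11 and Sox12 are the other SoxC genes, and their proteins bind the same DNA motif as SOX4. Sox11 (chr12:27334264-27342574, minus strand, 1 exon) was read at 0.349, 3.14 and 2.85 FPKM in Control and at 2.55, 1.64 and 0.736 FPKM in GOF. The lowest value of each group came from animal 9852, and the groups overlap throughout. The fitted difference was -0.31 on the log2 scale (SE 0.72, 95% interval -1.99 to 1.38, adjusted p = 0.799), an interval that holds a more than 2-fold difference in either direction. Its sign turned without Control replicate 1 (0.07), without GOF replicate 2 (0.06) and with the animal as a block (0.36). Sox12 (chr2:152393611-152398063, minus strand) was read at 0.483, 0.87 and 0.909 FPKM in Control and at 0.592, 0.505 and 0.263 FPKM in GOF. Again animal 9852 gave the lowest value of each group, and the low Control library reaches into the GOF range. The fitted difference of Sox12 was -0.78 (SE 0.36, 95% interval -1.62 to 0.06, adjusted p = 0.171), and it was negative under all 13 alternatives.

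A list of 3 genes reported as targets of the SOXC proteins was read beside them. Tead2, which encodes a DNA-binding partner of the Hippo pathway effectors YAP and TAZ, fell and 1 gene of the 2 tested was not called. Tead2 was at 38.4, 36.6 and 38.1 FPKM in Control and at 12.2, 13.9 and 13.6 FPKM in GOF, with a narrow spread within both groups. Its log2 fold change was -1.51 (SE 0.13, adjusted p = 0.000441, edgeR), and it stayed between -1.58 and -1.44 under the alternatives. Whether SOX4 acts on Tead2 in these cells was not tested.

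Sox9 had the largest fitted fall of the 9 genes. It encodes the SoxE factor that drives the cartilage program and maintains stem cells of the hair follicle, and it lies at chr11:112782224-112787760 on the plus strand. Sox9 was read at 2.32, 1.29 and 1.71 FPKM in Control and at 0.49, 0.224 and 0.379 FPKM in GOF. The highest GOF library was well below the lowest Control library, although the Control libraries themselves differed. The counts were 324, 206 and 264 fragments in Control and 77, 34 and 59 in GOF. The log2 fold change was -2.3 (SE 0.35, 95% interval -3.12 to -1.49, adjusted p = 0.00416, edgeR), a 4.93-fold fall. Sox9 was called lower under all 13 alternatives, in which its difference ranged from -2.57 to -1.01 and its adjusted p from 6.08e-09 to 0.0137. The smallest of these differences is on log2(FPKM + 1), a scale that shrinks the change of a gene at a low level. By mean level, Sox9 went from the percentile 29.8 of the genes tested in Control to 11.9 in GOF.

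Sox8 encodes a SoxE factor that overlaps with SOX9 in the testis and with SOX10 in the neural crest lineage. It was a low gene, at 0.304, 0.274 and 0.157 FPKM in Control and 0.0347, 0.0759 and 0.0918 FPKM in GOF. These values rest on 31, 33 and 18 fragments in Control and 4, 8 and 11 in GOF, and the groups did not overlap. Sox8 passed the filter through its Control libraries, since the minimum was about 10 fragments in 3 libraries. The fitted log2 fold change was -1.88 (SE 0.47, 95% interval -2.97 to -0.78, adjusted p = 0.0278, edgeR). The call was less stable than those of Sox4 and Sox9, being lost in 6 of the 13 alternatives. Leaving out Control replicate 0 gave -1.7 (adjusted p = 0.0545), Control replicate 1 gave -1.78 (0.0913), GOF replicate 0 gave -1.57 (0.0932) and GOF replicate 1 gave -1.94 (0.0717), all with edgeR.

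Sox8 (chr17:25565892-25570686, minus strand) shares 329 exon bases with 2810468N07Rik (chr17:25570358-25575043, plus strand), whose body also covers the Sox8 promoter window printed above. The noncoding gene was read at 1.21, 0.992 and 0.874 FPKM in Control and at 0.389, 0.576 and 0.495 FPKM in GOF. It was thus at a higher level per length than Sox8 in every library, and it was lower in each GOF library than in each Control library. Its log2 fold change was -1.1 (SE 0.3, adjusted p = 0.0349, edgeR). The call held with DESeq2 and with library totals and was lost under the other 11 alternatives, among them every library left out in turn (adjusted p from 0.0621 to 0.123). The kit keeps the strand, but the sources used here do not say whether the counting used it. In the shared bases, reads of the pair may therefore not have been told apart.

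**Figure D2:**
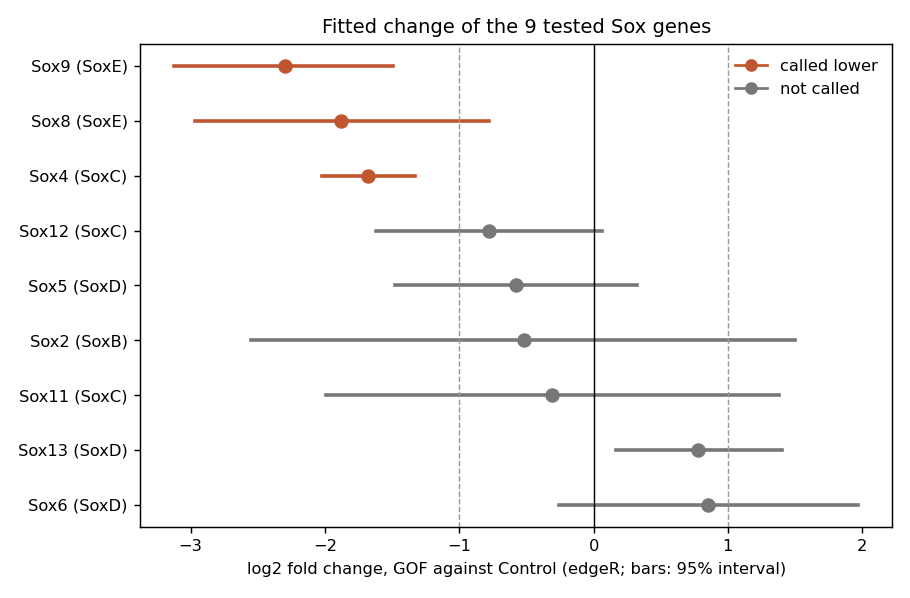
Fitted log2 fold change of GOF against Control (horizontal axis) with its 95% interval (bars) for the 9 Sox genes tested, from edgeR over all 6 libraries, with dashed lines at a 2-fold difference. Sox9 (-2.3), Sox8 (-1.88) and Sox4 (-1.68) were called lower (orange), the interval of Sox13 (0.17 to 1.4) lies above 0 without a call, and those of the other 5 genes hold 0.

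The third SoxE gene, Sox10, was not one of the 10. It was read at 36, 28 and 1 fragments in Control and 22, 12 and 50 in GOF (log2 fold change 0.26, adjusted p = 0.865, edgeR). Its sign turned without Control replicate 2 (-0.31) and without GOF replicate 2 (-0.43). Summed over Sox8 and Sox9, without Sox10, the level was 2.62, 1.56 and 1.87 FPKM in Control and 0.525, 0.299 and 0.471 FPKM in GOF. That the groups did not overlap follows from the separate ranges of both genes.

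SoxD proteins have no activation domain of their own. SOX5 and SOX6 bind beside SOX9 on cartilage enhancers, and SOX13 is known from T cells and as a partner of TCF1. Sox13 (chr1:133382303-133424377, minus strand) was read at 0.542, 0.502 and 0.64 FPKM in Control and at 1.29, 0.864 and 0.932 FPKM in GOF. Every GOF library was above every Control library. The log2 fold change was 0.78 (SE 0.26, 95% interval 0.17 to 1.4, adjusted p = 0.0737, edgeR), which misses both thresholds. The adjusted p was under the threshold with DESeq2 (0.036) and with limma on log2(FPKM + 1) (0.0428). Under all 13 alternatives the difference was positive and below 2-fold, from 0.37 to 0.9 on the log2 scale.

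Sox6 (chr7:115470872-116038796, minus strand) was read at 0.133, 0.0645 and 0.0637 FPKM in Control and at 0.116, 0.104 and 0.252 FPKM in GOF. The highest library of each group came from animal 9852, and the groups overlap through it. The log2 fold change was 0.85 (SE 0.48, 95% interval -0.26 to 1.97, adjusted p = 0.249). Sox5 (chr6:143828425-144781977, minus strand), with 14 annotated transcripts, was read at 0.468, 1.16 and 1.75 FPKM in Control and at 0.693, 0.178 and 0.966 FPKM in GOF. Its fragments were 98, 166 and 134 in Control and 89, 45 and 141 in GOF, which is a different order of the libraries. The ratio of FPKM to CPM, the fragments scaled to the library total after TMM, for Sox5 ranged from 0.151 to 0.53 over the libraries, while that of Sox9, for example, ranged from 0.245 to 0.263. The FPKM of a gene also depends on how its fragments are divided among transcripts of different length, and the part of this in the values of Sox5 was not tested. The log2 fold change of Sox5 on fragments was -0.58 (SE 0.39, 95% interval -1.48 to 0.32, adjusted p = 0.327), and no gene of the SoxD subgroup was called. In muscle, SOX6 sets the fiber type. Of 8 muscle markers 2 were tested, of which Acta1 rose and Des, at 0.31 on the log2 scale, had no call. Pax7 was listed at 0 and Myod1 had at most 1 fragment. The myosin gene Myh3, under the filter, had 0, 78 and 10 fragments in Control and 6, 5 and 2 in GOF. Myh8, also under the filter, had 0, 56 and 9 in Control and 7, 12 and 5 in GOF. Both were highest in Control replicate 1. The 8 markers summed to 23.4 to 27.7 FPKM in Control and 138.2 to 172.5 FPKM in GOF. Acta1 alone made up 22.7 to 26.4 FPKM of the Control and 136.9 to 171.2 FPKM of the GOF sums. The part of muscle genes in the values of Sox6 was not tested.

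Of 18 genes known as cartilage targets of SOX9, SOX5 and SOX6, 9 passed the filter, of which 2 rose, 2 fell and 5 were not called, with a median log2 fold change of 0.65, which does not change with Epyc set to the bound given below. Col2a1 and Acan, the main collagen and proteoglycan of cartilage, had at most 4 and 5 fragments in any library and were not tested. Epyc, a small leucine-rich proteoglycan of growth plate cartilage, was read at 36, 35 and 30 fragments in Control and at 0, 1 and 3 in GOF, which is at least 11.7-fold lower against the limit of 3 fragments per library (adjusted p = 0.00283, edgeR). Col11a2, a chain of the minor fibrillar collagen XI, was at 0.799, 0.758 and 0.631 FPKM in Control and 0.36, 0.212 and 0.398 FPKM in GOF (log2 fold change -1.13, adjusted p = 0.0397). The matrix genes that rose were Matn3, from 0.428, 0.391 and 0.315 FPKM to 1.15, 1.37 and 0.679 FPKM (log2 fold change 1.51, adjusted p = 0.0208), and Hapln1, from 3, 8 and 10 fragments to 50, 23 and 18 (log2 fold change 2.06, adjusted p = 0.0328). Epyc passed the filter through its Control libraries alone and Hapln1 through its GOF libraries, the group in which each was high, so their calls add no support to the counts of the list. The call of Epyc held with every library left out in turn. That of Matn3 was lost without Control replicate 1 or 2 or GOF replicate 0 or 1 (adjusted p from 0.0613 to 0.0741), while those of Hapln1 (0.0573 to 0.108) and Col11a2 (0.0706 to 0.13) were lost without any 1 library but GOF replicate 2. With the animal as a block, the calls of Matn3 (1.22, adjusted p = 0.0659) and Col11a2 (-0.97, under 2-fold) were also lost. Of the 7 chondrocyte markers, all of them also on this list, 2 were tested, and their summed level was 0.457 to 0.545 FPKM in Control and 0.864 to 1.51 FPKM in GOF. Their part in the fall of Sox9 was not tested. Keratinocytes of the follicle also express Sox9. Of 10 keratinocyte markers 3 were tested, of which Dsp, a desmosome gene, rose and 2 were not called. These were Krt10, at 32 to 48 fragments over the libraries (log2 fold change -0.08), and Sfn (0.16). Krt14, Krt1 and Krt5 had at most 2, 1 and 7 fragments in any library. The keratinocyte markers summed to 0.594 to 0.901 FPKM in Control and 3.09 to 7.15 FPKM in GOF, of which Dsp alone was 0.0754 to 0.0811 FPKM and 2.39 to 6.36 FPKM.

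Sox2 (chr3:34650405-34652461, plus strand), a factor of pluripotent and neural progenitor cells, was read at 0.337, 0.0825 and 0.153 FPKM in Control and at 0.0556, 0.0286 and 0.308 FPKM in GOF. With 22, 6 and 11 fragments in Control and 4, 2 and 23 in GOF, it was read at few fragments, and the highest value of each group came from animal 9852. The log2 fold change was -0.52 (SE 0.87, 95% interval -2.55 to 1.5, adjusted p = 0.711). Its sign turned without Control replicate 0 (0.19), and without GOF replicate 2 the difference was the largest of the alternatives (-2.14). The interval holds a more than 2-fold difference in either direction. Of 15 markers of the dermal condensate and papilla, 13 were tested, of which 4 rose (Hhip, Wif1, Prdm1 and Crabp1) and 4 fell (Fgf7, Vcan, Bmp3 and Alpl), with a summed level of 169.4 to 220 FPKM in Control and 107.5 to 288 FPKM in GOF. Of 6 Merkel cell markers, Atoh1, the factor that specifies them, was listed at 0 in every library, 3 rose (Krt20, Isl1 and Krt18) and Piezo2 fell, with sums of 8.18 to 9.3 FPKM in Control and 9.42 to 17.7 FPKM in GOF. Leaving out Control replicate 1 ended the calls of Crabp1 (adjusted p = 0.0763), Alpl (0.0534) and Krt18 (0.0924), and leaving out GOF replicate 0 or 1 ended those of Crabp1 (0.0853 and 0.0741) and Krt18 (0.0695 and 0.0617), as did Control replicate 0 (0.0552) or 2 (0.0532) for Krt18. With the animal as a block, the calls of Crabp1 (1.26, adjusted p = 0.056) and Krt18 (0.99, under 2-fold) were lost. The part of these cells in the values of Sox2 was not tested. Called genes of the marker lists were named after their values were seen. Of those of the dermal condensate and papilla, Hhip, Wif1 and Prdm1 passed the filter through their GOF libraries and Alpl through its Control libraries. Those are the groups in which each was high, so these calls add no support to the counts of the list.

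Several of the low Sox genes had the highest or the lowest value of each group in the cultures of animal 9852. Erbb3, the neuregulin receptor of Schwann cells, was read at 107 fragments in the Control and 138 in the GOF culture of animal 9852, and at 21 and 24 in those of animal 9845. It was thus higher in both cultures of animal 9852 than in both of animal 9845, and it was not called between the groups (log2 fold change 0.08, adjusted p = 0.954, edgeR). Sox10 at 36 and 50 fragments and Sox2 at 22 and 23 fragments had their highest values in the cultures of animal 9852. The cultures of animal 9845 differed in Sox10, with 1 fragment in Control and 22 in GOF. Other markers of Schwann cells and melanocytes did not follow this. Pmel, at 27 and 20 fragments, was the lowest of its group in both cultures of animal 9852. S100b, at 327 and 230 fragments there, was the highest in Control and the lowest in GOF. The sign of the difference of Erbb3 between the groups turned without Control replicate 2 (-0.35) or GOF replicate 2 (-0.74). Over 10 markers of Schwann cells and melanocytes, 7 were tested, 1 fell (Mlana) and none rose, with sums of 10.1 to 12.6 FPKM in Control and 6.46 to 10.7 FPKM in GOF. The call of Mlana was lost without Control replicate 1 (adjusted p = 0.0589) or GOF replicate 0 (0.0747), and the melanocyte gene Dct had at most 2 fragments in any library. The part of these cells in the values of Sox2, Sox8 and Sox10 was not tested.

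**Figure D3:**
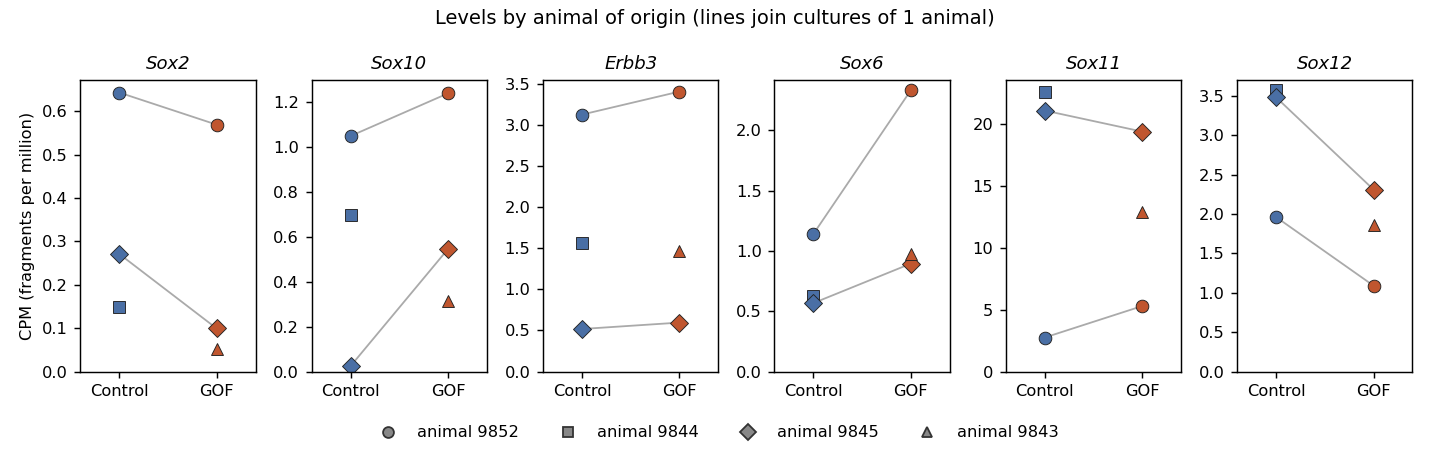
CPM, the fragments scaled to the library total after TMM (vertical axis, linear, a scale for each gene), of Sox2, Sox10, Erbb3, Sox6, Sox11 and Sox12 in the Control (blue) and GOF (orange) cultures, with symbols for the 4 animals and a line joining the cultures of 1 animal. Animal 9852 is the highest of its group for Sox2, Sox10, Erbb3 and Sox6 and the lowest for Sox11 and Sox12.

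The 2 animals that gave a culture to each group allow a look at the differences within an animal, as a description of 2 values. Sox4 was lower in the GOF culture by a log2 ratio of -1.94 in animal 9845 and -1.31 in animal 9852. Sox9 had log2 ratios of -1.77 and -2.7, and Sox8 of -2.16 and -1.74. All 3 genes called lower were thus lower within both animals. Their groups have separate ranges, as do those of Sox13, so these signs were fixed in advance and add no support. Sox13 (0.95 and 0.64) and Sox6 (0.66 and 1.03) were higher in the GOF culture of both animals, while Sox12 (-0.59 and -0.85) and Sox2 (-1.45 and -0.18) were lower in both. Sox11 (-0.12 and 0.95) and Sox5 (-0.58 and 0.28) went opposite ways. The ratio of Sox11 in animal 9852 compares 214 with 94 fragments, both far below the 783 and 855 of animal 9845.

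**Figure D4:**
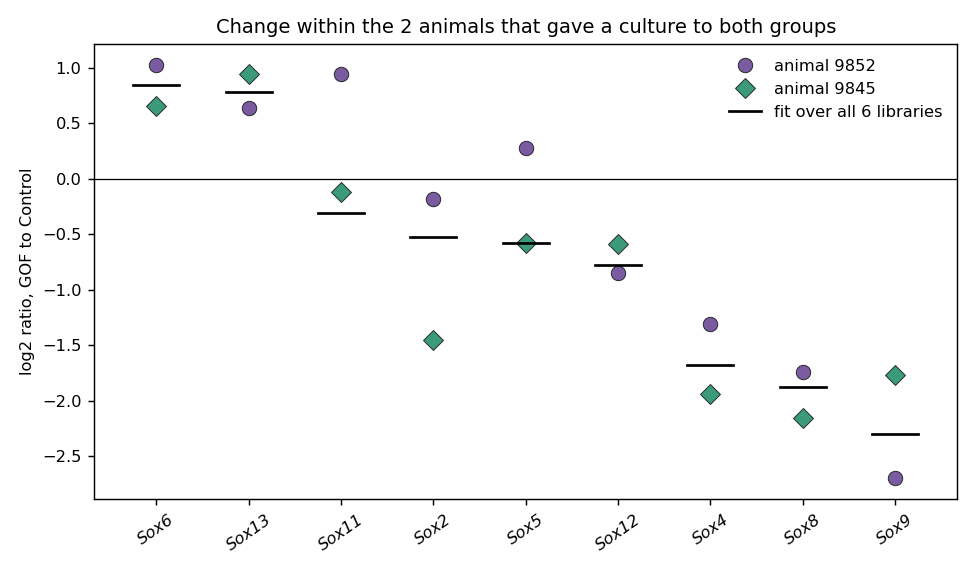
Log2 ratio of GOF to Control in CPM (vertical axis) for the 9 Sox genes tested within animal 9852 (circles) and animal 9845 (diamonds), with the fit over all 6 libraries as a bar. Sox4, Sox8 and Sox9 lie at or below -1.31 in both animals, whereas Sox11 and Sox5 have opposite signs in the 2 animals.

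Sox18 (chr2:181669836-181671640, minus strand) encodes a SoxF factor of blood and lymph vessels, and it was the one gene of the 10 under the filter. It had 1, 0 and 1 fragments in Control and 2, 0 and 2 in GOF. With both groups at or under 3 fragments per library, which corresponds to 0.07 to 0.0834 CPM of the unadjusted library totals, no fold change is given, and a difference was not detectable at this depth. Of the other SoxF genes, Sox17 had 0, 1 and 1 fragments in Control and 3, 2 and 4 in GOF. Sox7, which acts in the endothelium of the embryo, had 1, 0 and 0 fragments in Control and 18, 26 and 16 in GOF, all GOF libraries being above all Control libraries. Sox7 was called higher (adjusted p = 0.00314, edgeR) and was at least 6.45-fold higher in GOF, against the limit of 3 fragments in each Control library. It passed the filter through the GOF libraries.

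Endothelial genes were read beside the SoxF genes. Of 10 endothelial markers 8 were tested, of which Kdr and Esam rose and Tek fell, with a summed level of 9.18 to 11 FPKM in Control and 11.3 to 12.7 FPKM in GOF, and Cldn5, a claudin of endothelial junctions, had at most 5 fragments in any library. The call of Tek was lost without GOF replicate 0 (adjusted p = 0.0849). Esam passed the filter through its GOF libraries, where it was high, so its call adds no support to the counts of the list. The part of endothelial cells in the difference of Sox7 was not tested. Of 5 genes listed as targets of SOXF proteins, 3 were tested, of which 2 rose and 1, Vcam1, was not called. Vcam1 was at 77.7, 62.0 and 70.1 FPKM in Control and 49.5, 53.7 and 47.4 FPKM in GOF. Its log2 fold change was -0.47 (adjusted p = 0.0562, edgeR). The 5 genes summed to 64.8 to 81.5 FPKM in Control and 52.4 to 63.2 FPKM in GOF. Prox1, the factor that specifies lymphatic endothelium, was at 12, 14 and 25 fragments in Control and 68, 38 and 44 in GOF (log2 fold change 1.51, adjusted p = 0.0272, edgeR). Efnb2, an ephrin of arterial endothelium that fibroblasts also express, was at 3.66, 2.65 and 2.94 FPKM in Control and 13.4, 7.4 and 4.74 FPKM in GOF (log2 fold change 1.48, adjusted p = 0.0274). Leaving out 1 library ended the call of Prox1 for Control replicate 0 or 1 or GOF replicate 0 (adjusted p from 0.0583 to 0.11), and that of Efnb2 for Control replicate 1 or 2 or GOF replicate 0 or 1 (0.0606 to 0.0932). With the animal as a block, the call of Efnb2 was lost (1.25, adjusted p = 0.075), and its log2 ratio was 2.19 in animal 9845 and 0.29 in animal 9852.

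The remaining Sox genes added little RNA. Sox30 had 8, 14 and 2 fragments in Control and 12, 4 and 13 in GOF (log2 fold change 0.21, adjusted p = 0.858), with the sign turned without Control replicate 2 (-0.26) or GOF replicate 2 (-0.05). Sox15 had 3, 7 and 2 fragments in Control and 3 in each GOF library, Sox21 at most 3 in any library, and 4 genes, Sox1, Sox3, Sox14 and Sry, were listed at 0 in all 6 libraries.

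In the order of FPKM within the Control group, Sox4 was followed by Sox11, Sox9, Sox5, Sox12, Sox13, Sox8, Sox2, Sox6 and Sox18. The means were 2.11 ± 1.53 for Sox11, 1.77 ± 0.517 for Sox9, 1.13 ± 0.643 for Sox5, 0.754 ± 0.236 for Sox12, 0.561 ± 0.0709 for Sox13, 0.245 ± 0.0777 for Sox8, 0.191 ± 0.131 for Sox2 and 0.0871 ± 0.0398 for Sox6 (FPKM, SD, n = 3). Neighbours in this order overlapped in their libraries except at 3 steps, those from Sox4 to Sox11, from Sox13 to Sox8 and from Sox6 to Sox18. In the GOF group the order was Sox4, Sox11, Sox13, Sox5, Sox12, Sox9, Sox6, Sox2, Sox8 and Sox18, and all neighbours but Sox4 and Sox11 overlapped. Sox9 thus went from the third place to the sixth and Sox13 from the sixth to the third, while the middle places are not separated by the spread. The exact two-sided permutation test on FPKM gave p = 0.1 for Sox4, Sox8, Sox9 and Sox13, which is the smallest p that 3 against 3 libraries allow, and between 0.3 and 0.7 for the other 5 genes tested.

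The partners through which SOX and TCF proteins meet β-catenin were read as a list of 13 genes, all tested, of which 3 rose, 1 fell and 9 were not called, with a median log2 fold change of -0.09. Tcf7, which encodes TCF1, was at 0.0764, 0.0849 and 0.141 FPKM in Control and 2.86, 3.24 and 1.56 FPKM in GOF (log2 fold change 4.61, adjusted p = 0.000549, edgeR). Lef1, another TCF/LEF factor, was at 0.062, 0.0742 and 0.0559 FPKM in Control and 0.41, 0.423 and 0.402 FPKM in GOF (log2 fold change 2.76, adjusted p = 0.00118). All GOF libraries were several times above all Control libraries for both. Both genes passed the filter through their GOF libraries, where they were high, so their calls add no support to the counts of the list. Of the Groucho corepressors, which bind TCF factors in the absence of β-catenin, Tle4 rose (log2 fold change 1.26, adjusted p = 0.00341) and Tle2 fell (log2 fold change -1.31, adjusted p = 0.0118). Tle1 (0.88, adjusted p = 0.00728), Tle3 (-0.4, 0.0758) and Tle5 (-0.09, 0.646) differed less than 2-fold and were not called. The groups overlapped in FPKM for Tle2. Its call was lost with limma on log2(FPKM + 1) (adjusted p = 0.0552) and on log2(FPKM + 0.1) (0.057). Tle4 was under 2-fold on log2(FPKM + 1) (0.77). On the FPKM scale, the level of Tcf7 was below Sox13 in the Control libraries and above it in the GOF libraries, and both were far below Sox4 in each library.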

How the data were processed

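RNA-seq libraries of 3 Control and 3 GOF cultures were analysed. Per the labels and the paper, the authors prepared stranded TruSeq libraries, sequenced them as paired ends, used TopHat to map the reads to mm10, and estimated levels by Cuffdiff. The paper names Cuffdiff and Seqmonk at standard settings, and versions and strand use in counting are not given in the sources used here. The estimated counts are fragments per gene and library that the authors deposited before scaling, and 4.95% were not whole. The deposited FPKM are the same estimates scaled by the authors for transcript length and library. The table also holds 2 more per-library columns, which were left out, as was the separate table of lncRNAs. Among all genes, 32 without a valid estimate, none of them a Sox gene, were left out, and 97.9% of identifiers matched GENCODE M21 on GRCm38.

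Fragments were rounded and tested in R 4.3.3 with edgeR 4.0.16 (TMM, a scaling between libraries, filterByExpr with a minimum count of 10, quasi-likelihood test, Benjamini-Hochberg adjustment over 15462 genes). SE was the log2 fold change divided by the square root of F. Alternatives used DESeq2 1.42.0 and limma 3.58.1, and data.table (1.17.8) read the tables. The script was tested on simulated data. Single genes were compared on FPKM by an exact permutation test. The limit of 3 fragments covers counting error only. Nothing says that the cultures of a group were infected independently beyond their animals, so p-values measure the spread between these libraries.

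The 10 genes, the lists and the rule for named genes were chosen with earlier results of these data known. The rule names the 10 genes, other Sox genes, overlapping noncoding genes, Axin2 and Ctnnb1, and of each target or partner list the called members, at most 4 each way. Uncalled genes of the lists, such as Vcam1 and Tubb3, are named outside this rule. Promoters are those of RefSeq on GRCm38.p6, and protein sequences were not used here. Of the Schwann cell and melanocyte markers, 1 gene is not reported here.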

Additional observations from a re-analysis of the deposited data

How the results depend on the processing

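With 3 libraries a group, the spread is poorly known, and Sox2, Sox8 and Sox18 had at most 33 fragments in any library. The alternatives were DESeq2, library totals, no filter on low counts, limma on log2(FPKM + 1) or log2(FPKM + 0.1), a replicate block (number in the labels, or animal), and the fit without each library. No Sox gene of the 10 was called higher under any of the 13. The count called lower was 3 or 2, with Sox8 the one lost. The genes called overall went from 1906 to 877 with limma on log2(FPKM + 1), on which Sox8 (-0.22, adjusted p = 0.0527) and Sox7 (0.19, fold under 2) lost their calls, and they ranged from 1296 to 1896 with 1 library left out.

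Libraries with the same number came from different animals, and their deviations from the group means correlated across genes at -0.41, 0.054 and -0.441, against 0.408 and 0.46 for libraries of the same animal, so the numbers do not pair the samples. The replicate block by label number gave 1421 calls, 2 of them Sox genes, and the replicate block by animal, with 1 residual degree of freedom, gave 2008, 3 of them Sox genes. Under the label block Sox8 was at -1.87 (adjusted p = 0.103). The sign of Sox11 turned under the animal block (0.36).

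With 1 library left out, differences that were not called turned sign for Sox2 (-2.14 to 0.19), Sox11 (-0.8 to 0.07), Sox10 (-0.43 to 0.95), Sox30 (-0.26 to 0.8), Erbb3 (-0.74 to 0.8) and Ctnnb1 (-0.16 to 0.02). The cause was not tested.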
